A study of Mus musculus with 9 samples.

Results

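The genes described here build the moving parts of the sperm tail. They are 46 of the 21743 protein-coding genes, and of 32035 genes of all kinds, that were measured in mouse testis. They were chosen by a rule on their symbols that uses no measured value, although earlier results of these data were known. They comprise 5 heavy chains of the outer dynein arm, 10 heavy chains of the inner dynein arm, and 5 intermediate and light chains. The others are 2 docking proteins, 5 assembly factors, 8 radial spoke proteins, 6 proteins of the nexin-dynein regulatory complex and its ruler, and 5 tektins. All 46 had a count in at least some of the samples, and they lie on 15 chromosomes.

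RNAseq was performed on whole testes of male mice 15 weeks old on the C57Bl6/N background, 3 of each genotype. WT testes carried no targeted allele. In *Kpna6*ΔIBB/ΔIBB mice, exon 2 of *Kpna6*, the gene of the nuclear import receptor importin α7, is deleted, and the shortened mRNA encodes a protein without the domain that binds importin β. In *Kpna6*-/- mice a gene trap sits in intron 1 of the gene. A promoter downstream of the trap is described as still providing full-length protein in germ cells of the testis, but not in Sertoli cells. The labels speak of a complete loss. Both alleles are constitutive, so every cell type of the testis carries them. Neither the labels nor the text say which testes came from littermates.

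The axoneme is a ring of doublet microtubules around a central pair. Dynein arms on each doublet are motors that walk on the neighbouring doublet: outer arms supply most of the power, and inner arms, which are several different motors, shape the bend. Radial spokes carry signals from the central pair to the arms, the nexin-dynein regulatory complex links neighbouring doublets, and tektins form filaments that stiffen the doublets. Arms are assembled in the cytoplasm by dedicated factors before they are transported into the tail. In the testis these genes are transcribed in late meiotic and post-meiotic germ cells.

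The libraries held between 24859751 and 31484692 counts on genes, and the 46 genes took between 0.861% and 0.938% of them. *Kpna6* had 201, 325 and 334 CPM in the WT testes (replicates 1 to 3; CPM are counts scaled to a common library size with TMM factors), 81.2, 85.3 and 81.8 CPM in *Kpna6*ΔIBB/ΔIBB and 247, 249 and 262 CPM in *Kpna6*-/- testes. Its log2 fold change was -1.79 (SE 0.15, adjusted p = 1.94e-05, edgeR) in *Kpna6*ΔIBB/ΔIBB and -0.18 (SE 0.14, adjusted p = 0.586) in *Kpna6*-/- testes, so the gene's level checks the ΔIBB label but not the other. Of 8 markers of epididymal epithelium, *Crisp1*, *Spink8* and *Adam7* reached 77.0, 81.3 and 6.99 TPM in *Kpna6*ΔIBB/ΔIBB replicate 3 and at most 10.7 TPM elsewhere. WT replicate 1 had the lowest *Kpna6* level of its group. The total counts of axonemal genes called are therefore given below with and without these 2 libraries.

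In WT testes the 46 genes spanned a range from 0.110 ± 0.0348 TPM (SD, n = 3) for *Rsph4a* to 1113 ± 61.1 TPM for *Rsph1*, as the plot of levels shows (TPM is corrected for transcript length and has a common total, so genes can be compared). *Rsph1*, a component of the spoke head, was the most abundant gene of all classes. *Dnaaf1*, a factor of dynein arm assembly, followed with 412 ± 20.1 TPM, then *Tekt2* with 321 ± 10.8 TPM and *Tekt1* with 313 ± 8.91 TPM. The difference between *Tekt1* and *Tekt2* was smaller than the SD of either.

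Paralogs known from motile cilia were at low levels beside their counterparts in sperm. *Rsph6a*, the sperm form of the spoke-head protein Rsph4a, was at 151 ± 6.14 TPM, whereas *Rsph4a* was at the bottom of the list. Among outer arm heavy chains, *Dnah8* (90.2 ± 4.49 TPM) and *Dnah17* (75.1 ± 4.24 TPM), which are used in the sperm tail, stood above *Dnah9* (2.44 ± 0.133 TPM), *Dnah11* (1.10 ± 0.446 TPM) and *Dnah5* (0.433 ± 0.0212 TPM), which are known from airway and other motile cilia. The group means had the same order in both mutant lines.

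Levels of 3 inner arm heavy chains rested mainly on short annotated transcripts. Of the WT TPM value of *Dnah14*, 71.1% was assigned to transcripts under 5000 bases, and the share was 67.9% for *Dnah7a* and 57.0% for *Dnah7b*. On transcripts of at least 5000 bases, a limit set after the values were seen, *Dnah2* was the most abundant inner arm heavy chain (29.0 ± 1.63 TPM), followed by *Dnah1* (26.0 ± 2.15 TPM), whereas *Dnah14* had 14.2 ± 0.304 TPM. The means of *Dnah2* and *Dnah1* differed by less than the sum of their SDs.

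**Figure D1:**
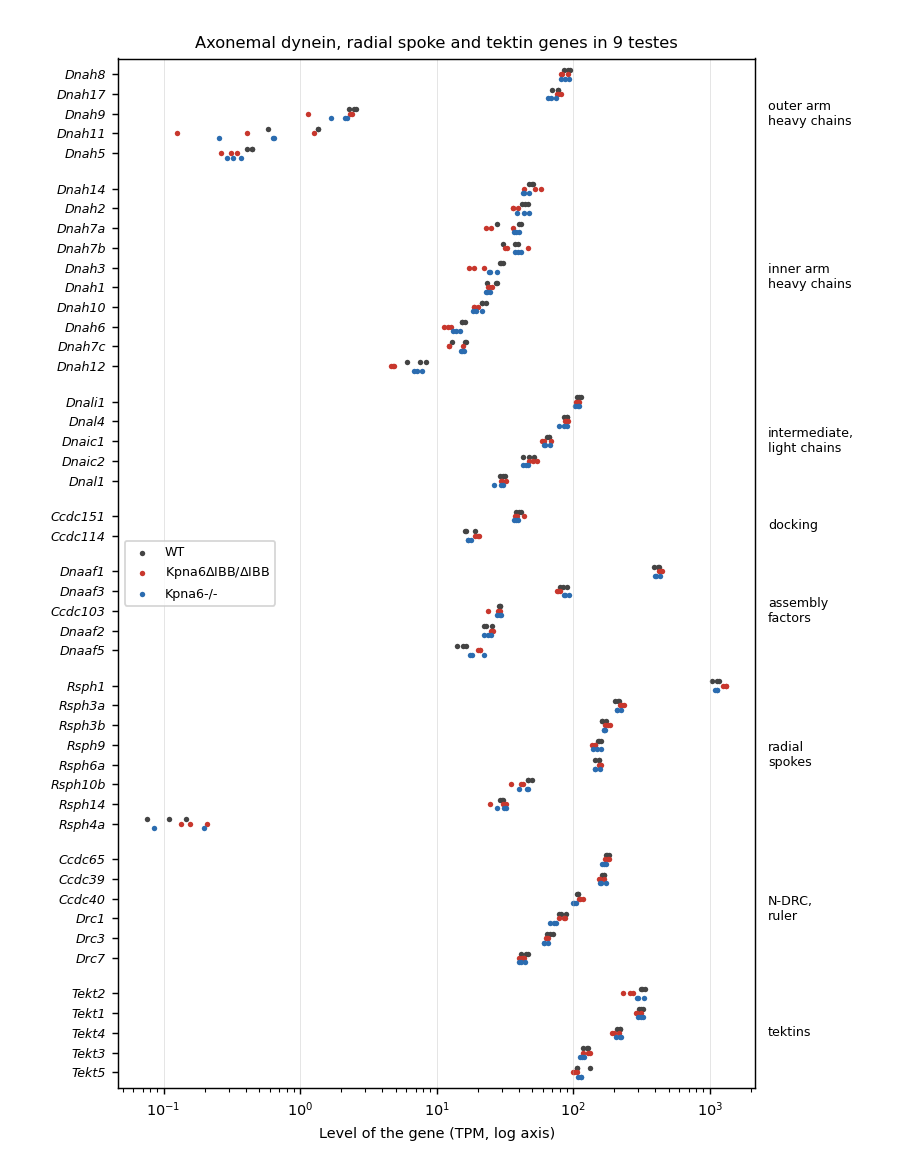
Level of each of the 46 genes in each of the 9 testes. The horizontal log axis gives TPM, each point is 1 testis, colours mark the genotype, and genes are grouped by class and ordered by their WT mean. *Rsph1* stands at the top of the scale (1113 TPM in WT), and *Rsph4a*, *Dnah5*, *Dnah11* and *Dnah9* stand below 3 TPM. Values of 0 are not drawn.

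Whether the 2 *Kpna6* alleles alter these genes was examined in 3 comparisons with the quasi-likelihood test of edgeR, adjusted over all genes tested. In *Kpna6*ΔIBB/ΔIBB against WT testes, 27 of the 46 genes were lower, 0 were higher and 19 did not pass an adjusted p of 0.05. Among all 18797 genes tested, 18.9% were called lower and 17.7% higher, 36.6% in all. The median log2 fold change of the 46 genes was -0.20, and it was 0.01 over all genes. In 29 of the 46 genes the 3 mutant and 3 WT testes did not overlap in CPM, against 50% of all genes. Of these 29 genes *Rsph1* alone was higher in the mutant. Of all genes 25.2% did not overlap with the mutant lower. Without *Kpna6*ΔIBB/ΔIBB replicate 3, 27 genes were lower, with *Dnah9* in place of *Ccdc103*, and without WT replicate 1, 25 were.

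The comparison of *Kpna6*-/- with WT testes could test 45 of the genes, since *Rsph4a* did not pass the filter on low counts. None was called in either direction by edgeR, although 6 had an unadjusted p below 0.05 and DESeq2 called 1, *Dnah3*. Without WT replicate 1, edgeR called 1 gene lower, *Dnah1*, and it called *Dnah3* without *Kpna6*-/- replicate 3 and *Dnah11* without WT replicate 2. Of all 18681 genes, 0.712% were called lower and 0.889% higher, 1.6% in all. The groups did not overlap in 4 of the 45 genes (*Dnah3*, *Dnah5*, *Dnah6* and *Dnah14*), each lower in the mutant, against 9.79% of all genes in that direction and 20% in either. The median log2 fold change of the 45 genes was -0.04.

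In the direct comparison of *Kpna6*ΔIBB/ΔIBB with *Kpna6*-/- testes, 22 of the 46 genes were lower and 0 were higher, with a median log2 fold change of -0.13. The background was 16.8% of 18752 genes called lower and 13.5% called higher, 30.3% in all. In 27 of the 46 genes the groups did not overlap, against 44.4% of all genes. Of these 27 genes *Rsph1* alone was higher in *Kpna6*ΔIBB/ΔIBB. Of all genes 22.7% did not overlap with *Kpna6*ΔIBB/ΔIBB lower. Without *Kpna6*ΔIBB/ΔIBB replicate 3, 23 were lower, *Dnah9* in addition, and 1 was higher, *Rsph1*. This comparison shares its *Kpna6*ΔIBB/ΔIBB samples with that against WT. In whole testes, fewer cells of a type and less RNA per cell cannot be told apart.

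The size of these counts depended on how the libraries were scaled. Scaled by library size alone, the median log2 fold change of all genes moved to 0.11 in *Kpna6*ΔIBB/ΔIBB against WT. The share of lower genes among all calls went from 51.6% to 30.0%, with 2326 of 18797 genes called lower and 5416 higher. Of the 46 genes, 13 were called lower and 3 higher (*Rsph1*, *Dnal1* and *Dnaaf5*). The median against *Kpna6*-/- moved to 0.10, the share went from 55.5% to 29.0%, and 12 were lower and 6 higher. Relative to the median of all genes, the median of the 46 genes was -0.21 in *Kpna6*ΔIBB/ΔIBB against WT under both scalings. Directions in the following are those under TMM. Under library size 11 genes turned their sign against WT, all with TMM values between -0.10 and -0.01, and 10 turned against *Kpna6*-/-.

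**Figure D2:**
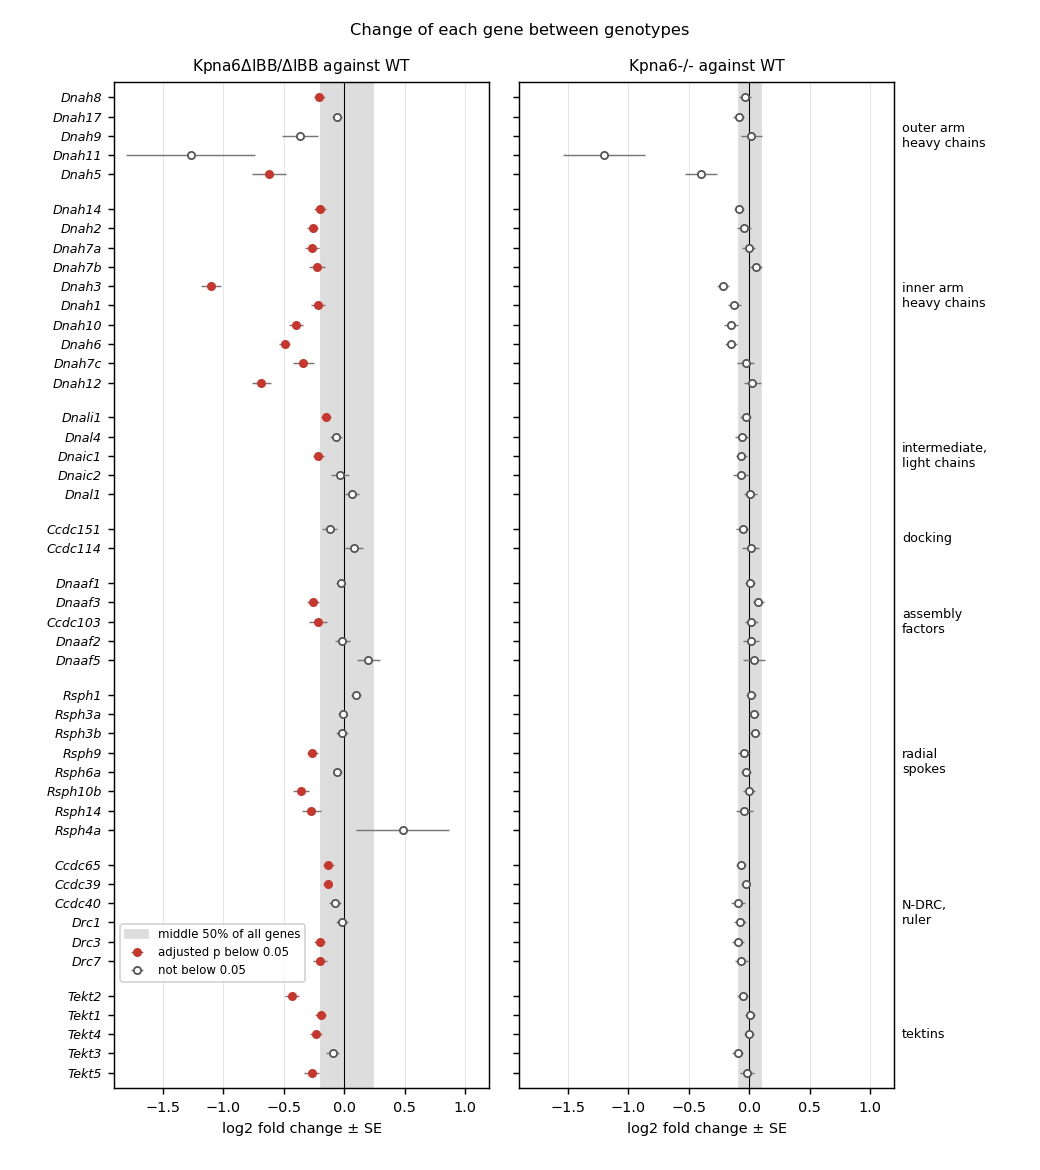
Log2 fold change of each gene with its standard error, in *Kpna6*ΔIBB/ΔIBB against WT (left) and *Kpna6*-/- against WT (right), 3 testes per group. Filled points had an adjusted p below 0.05, and the grey band holds the middle 50% of all genes tested. On the left all 10 inner arm heavy chains are filled and lie below 0, and on the right none of the 45 genes is filled. *Rsph4a* was not tested on the right.

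Inner arm heavy chains were the class with the most calls. All 10 were lower in *Kpna6*ΔIBB/ΔIBB than in WT testes, with a median log2 fold change of -0.30 and a range from -1.10 to -0.20, and 8 of 10 were lower than in *Kpna6*-/- testes (median -0.28). Scaled by library size alone, 7 of 10 were lower in each of these comparisons and all 10 stayed below 0. With length-scaled TPM counts 6 of 10 were lower in each, and with limma on log2(TPM + 1) 4 of 10 were lower against WT and 2 of 10 against *Kpna6*-/-, with 8 of 10 below 0 in each. In *Kpna6*-/- against WT testes edgeR called 0 of 10, with a median of -0.06. There *Dnah3* was called with DESeq2, without a filter on low counts and without *Kpna6*-/- replicate 3, and *Dnah1* without WT replicate 1.

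*Dnah3* (chr7:119922671-120095280 of GRCm38), a heavy chain of an inner arm dynein, had the largest change among the genes called. It had 207, 207 and 215 CPM in WT, 85.98, 93.2 and 113 CPM in *Kpna6*ΔIBB/ΔIBB and 177, 170 and 195 CPM in *Kpna6*-/- testes. Each *Kpna6*ΔIBB/ΔIBB value was below all others, and the *Kpna6*-/- samples lay between the other groups without overlap. The log2 fold change against WT was -1.10 (SE 0.08, adjusted p = 1.39e-05), a decrease by 53.4%. It was -0.89 (SE 0.09, adjusted p = 1.68e-05) against *Kpna6*-/-, and in *Kpna6*-/- against WT -0.22 (SE 0.05, adjusted p = 0.0519).

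*Dnah12*, a further inner arm heavy chain, had 34.5, 42.1 and 41.4 CPM in WT, 23.7, 24.3 and 25.2 CPM in *Kpna6*ΔIBB/ΔIBB and 41.0, 40.5 and 38.7 CPM in *Kpna6*-/- testes. Here the mutant line with the deletion stood apart, and the other groups overlapped. The log2 fold change was -0.69 (SE 0.08, adjusted p = 9.44e-05) against WT and -0.72 (SE 0.05, adjusted p = 3.37e-06) against *Kpna6*-/-. *Dnah6* (chr6:73017606-73221651) had 159, 167 and 155 CPM in WT, 115, 118 and 109 CPM in *Kpna6*ΔIBB/ΔIBB and 153, 143 and 139 CPM in *Kpna6*-/- testes. As with *Dnah3*, the *Kpna6*-/- samples lay between the other groups. Its log2 fold change was -0.49 (SE 0.05, adjusted p = 3.37e-05) against WT, -0.35 (SE 0.05, adjusted p = 0.000161) against *Kpna6*-/- and -0.15 (SE 0.05, adjusted p = 0.142) in *Kpna6*-/- against WT.

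*Dnah10*, which forms the double-headed inner arm together with *Dnah2*, had 201, 227 and 198 CPM in WT, 152, 165 and 157 CPM in *Kpna6*ΔIBB/ΔIBB and 202, 181 and 180.2 CPM in *Kpna6*-/- testes. It was lower than in WT by -0.40 (SE 0.06, adjusted p = 0.000344) and lower than in *Kpna6*-/- by -0.25 (adjusted p = 0.00274) on the log2 scale. *Dnah2* had 315, 349 and 334 CPM in WT, 283, 284 and 263 CPM in *Kpna6*ΔIBB/ΔIBB and 349, 324 and 296 CPM in *Kpna6*-/- testes. The log2 fold change of *Dnah2* was -0.26 against WT (adjusted p = 0.00163) and -0.23 against *Kpna6*-/- (adjusted p = 0.00768). In both genes the *Kpna6*ΔIBB/ΔIBB samples were below all others.

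*Dnah7a*, *Dnah7b* and *Dnah7c* on chromosome 1 share 96.9% to 97.3% of their bases over about the whole transcript, so the split of reads among them is uncertain. In WT testes their counts were 117, 137 and 125.4 CPM for *Dnah7a*, 144, 170.2 and 159 CPM for *Dnah7b*, and 126, 162 and 152 CPM for *Dnah7c*. The values in *Kpna6*ΔIBB/ΔIBB testes were 104, 106 and 104, then 129, 143 and 132, and then 112, 126 and 109 CPM. The values in *Kpna6*-/- testes were 126, 126 and 127, then 161, 165 and 167, and then 144, 147 and 139 CPM. The 3 genes were lower against WT by -0.27, -0.23 and -0.34 on the log2 scale and lower against *Kpna6*-/- by -0.27, -0.29 and -0.32. Summed before the test, their counts gave a joint result that was also called lower against WT, and it does not tell the 3 genes apart. The call of *Dnah7b* against WT was lost without WT replicate 2 and without *Kpna6*ΔIBB/ΔIBB replicate 1, with log2 fold changes from -0.29 to -0.18 over the 6 fits that each leave out 1 testis. It was also lost under library size. With length-scaled TPM counts and with limma on log2(TPM + 1), none of the 3 genes was called against WT. Against *Kpna6*-/- none was called with limma, and *Dnah7b* was not called with length-scaled TPM counts.

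*Dnah14* had 176, 181 and 174 CPM in WT, 147, 164 and 149 CPM in *Kpna6*ΔIBB/ΔIBB and 171, 167 and 162 CPM in *Kpna6*-/- testes, a log2 fold change of -0.20 against WT (adjusted p = 0.0074). Its TPM values, which carry no TMM scaling, were 49.3 ± 1.86 in WT and 51.2 ± 7.47 in *Kpna6*ΔIBB/ΔIBB testes. Its call was lost under library size, with length-scaled TPM counts and with limma on log2(TPM + 1). *Dnah1*, a heavy chain needed for the sperm tail, was lower against WT by -0.22 (adjusted p = 0.0104). Against *Kpna6*-/- the differences were -0.13 (adjusted p = 0.0569) for *Dnah14* and -0.10 (adjusted p = 0.0611) for *Dnah1*.

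**Figure D3:**
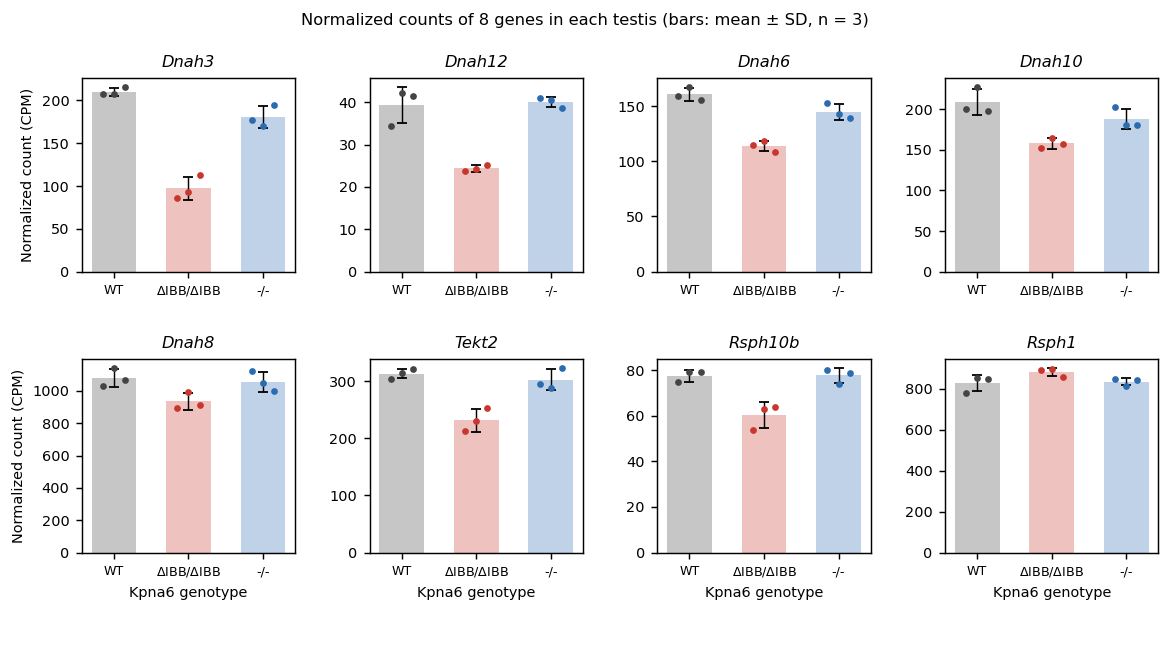
Normalized counts (CPM, from 0) of 8 genes in each testis by *Kpna6* genotype. Points are testes, bars are group means and error bars the SD (n = 3). The *Kpna6*ΔIBB/ΔIBB testes lie below all others for *Dnah3*, *Dnah12*, *Dnah6*, *Dnah10*, *Dnah8*, *Tekt2* and *Rsph10b*, and above all others for *Rsph1*, whose change did not pass the test.

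Among outer arm heavy chains 2 of 5 were lower in *Kpna6*ΔIBB/ΔIBB than in WT testes, 1 of 5 was lower than in *Kpna6*-/- testes, and 0 were called in *Kpna6*-/- against WT. Their median log2 fold change in *Kpna6*ΔIBB/ΔIBB against WT was -0.37, which is the value of *Dnah9*, a gene with few counts. *Dnah8* had 1033, 1141 and 1071 CPM in WT, 895, 996 and 914 CPM in *Kpna6*ΔIBB/ΔIBB and 1124, 1046 and 998 CPM in *Kpna6*-/- testes. It was lower by -0.21 against WT (SE 0.05, adjusted p = 0.00679) and by -0.18 against *Kpna6*-/- (adjusted p = 0.0161) on the log2 scale. The latter call was lost without *Kpna6*-/- replicate 1 and without *Kpna6*ΔIBB/ΔIBB replicate 1, where the log2 fold change ranged from -0.22 to -0.13 over the 6 fits. Scaled by library size alone, *Dnah8* was called in neither comparison. *Dnah17*, which pairs with *Dnah8* in the sperm outer arm, did not pass the test (log2 fold change -0.06, SE 0.04, adjusted p = 0.293), and under library size it was called higher against *Kpna6*-/-.

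The outer arm chains known from cilia had few counts, from 23 to 338 per testis. *Dnah9* had 10.4, 11.1 and 11.8 CPM in WT, 9.04, 6.45 and 10.2 CPM in *Kpna6*ΔIBB/ΔIBB and 11.1, 10.97 and 11.6 CPM in *Kpna6*-/- testes. The *Kpna6*ΔIBB/ΔIBB samples were below all others, but the log2 fold change of -0.37 against WT did not pass the test (SE 0.15, adjusted p = 0.0756). It was called lower with DESeq2, with all 9 samples in 1 fit, with the replicate number as a block and without *Kpna6*ΔIBB/ΔIBB replicate 3. *Dnah5* had 5.80, 5.80 and 5.13 CPM in WT, 3.68, 3.05 and 4.12 CPM in *Kpna6*ΔIBB/ΔIBB and 4.17, 4.74 and 3.77 CPM in *Kpna6*-/- testes. It was lower against WT in *Kpna6*ΔIBB/ΔIBB testes by -0.62 (SE 0.14, adjusted p = 0.00563), and the difference in *Kpna6*-/- testes was -0.40 (SE 0.13, adjusted p = 0.162). *Dnah11*, with 23 to 187 counts per testis, varied within the groups: it had 6.31, 2.00 and 6.28 CPM in WT and 0.888, 4.04 and 1.01 CPM in *Kpna6*ΔIBB/ΔIBB, and 2.43, 1.88 and 2.02 CPM in *Kpna6*-/- testes. Its log2 fold change of -1.27 had an SE of 0.53 and did not pass the test (adjusted p = 0.0862), and it shares 644 identical bases with *Cdca7l*.

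Of the intermediate and light chains, *Dnaic1* and *Dnali1* were lower in *Kpna6*ΔIBB/ΔIBB testes and 3 of 5 did not pass the test. *Dnaic1*, an intermediate chain of the outer arm, had 103, 106 and 99.2 CPM in WT, 84.5, 88.9 and 91.6 CPM in *Kpna6*ΔIBB/ΔIBB and 99.4, 93.6 and 102 CPM in *Kpna6*-/- testes. *Dnali1*, a light chain of the inner arm, had 166, 175 and 174 CPM in WT, 149, 156 and 157 CPM in *Kpna6*ΔIBB/ΔIBB and 171, 162 and 171 CPM in *Kpna6*-/- testes. The log2 fold changes against WT were -0.21 (adjusted p = 0.00547) and -0.15 (adjusted p = 0.0153), and both genes were also called against *Kpna6*-/- (-0.16 and -0.13). Neither was called when libraries were scaled by size alone, and *Dnali1* lost its call against WT without WT replicate 2 and without *Kpna6*ΔIBB/ΔIBB replicate 1 (-0.18 to -0.13 over the 6 fits). Against *Kpna6*-/-, both calls were lost without *Kpna6*-/- replicate 1, without *Kpna6*-/- replicate 3, without *Kpna6*ΔIBB/ΔIBB replicate 1 and without *Kpna6*ΔIBB/ΔIBB replicate 2, with log2 fold changes from -0.19 to -0.12 for *Dnaic1* and from -0.16 to -0.10 for *Dnali1*. *Dnaic2*, *Dnal1* and *Dnal4* had log2 fold changes of -0.03, 0.06 and -0.07 against WT, of which -0.03 and -0.07 turn their sign under library size.

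Neither docking protein was called in any of the 3 comparisons under TMM, although *Ccdc114* was called higher against *Kpna6*-/- under library size. *Ccdc151* had 64.9, 67.5 and 60.3 CPM in WT, 55.1, 63.7 and 57.6 CPM in *Kpna6*ΔIBB/ΔIBB and 64.1, 59.3 and 62.4 CPM in *Kpna6*-/- testes, and the groups overlapped (log2 fold change -0.12 against WT, SE 0.06, adjusted p = 0.165). *Ccdc114* had a log2 fold change of 0.08 (SE 0.08, adjusted p = 0.439).

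Of the assembly factors 2 of 5 were lower against WT as well as against *Kpna6*-/-. *Dnaaf3* had 133, 138 and 144 CPM in WT, 114, 112 and 120 CPM in *Kpna6*ΔIBB/ΔIBB and 153, 143 and 143 CPM in *Kpna6*-/- testes. Its log2 fold change was -0.26 against WT (SE 0.05, adjusted p = 0.00169) and -0.34 against *Kpna6*-/- (SE 0.04, adjusted p = 0.000114), and it was also lower in both comparisons under library size. *Ccdc103*, which helps arms to attach, had 32.5, 33.6 and 31.9 CPM in WT, 25.04, 30.4 and 28.5 CPM in *Kpna6*ΔIBB/ΔIBB and 33.7, 32.2 and 33.5 CPM in *Kpna6*-/- testes. Its call against WT (-0.22, adjusted p = 0.0374) was lost without each of the 3 WT testes and without *Kpna6*ΔIBB/ΔIBB replicates 1 and 3, with log2 fold changes from -0.28 to -0.15, and that against *Kpna6*-/- (-0.24) without *Kpna6*-/- replicates 1 and 3 and without *Kpna6*ΔIBB/ΔIBB replicate 1, with log2 fold changes from -0.30 to -0.17.

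The most abundant assembly factor, *Dnaaf1*, had 837, 923 and 872 CPM in WT, 832, 869 and 868 CPM in *Kpna6*ΔIBB/ΔIBB and 919, 846 and 880.0 CPM in *Kpna6*-/- testes. The groups overlapped, with a log2 fold change of -0.03 against WT (SE 0.04, adjusted p = 0.597) that turns its sign under library size. *Dnaaf2* (-0.02, also of the opposite sign under library size) and *Dnaaf5* (0.20, SE 0.10, adjusted p = 0.131) did not pass the test either. *Dnaaf5* shares 374 identical bases with *Gm15672*.

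Radial spoke genes split within their class. *Rsph9*, *Rsph10b* and *Rsph14* were lower in *Kpna6*ΔIBB/ΔIBB testes, and 5 of 8 did not pass the test. Under library size, *Rsph9* and *Rsph10b* were called lower against WT and *Rsph10b* alone against *Kpna6*-/-. *Rsph10b* (chr5:143933035-143985719) had 74.6, 79.2 and 78.9 CPM in WT, 53.7, 62.9 and 63.9 CPM in *Kpna6*ΔIBB/ΔIBB and 80.0, 73.9 and 78.9 CPM in *Kpna6*-/- testes. Its log2 fold change was -0.36 (SE 0.07, adjusted p = 0.00169) against WT and -0.37 (SE 0.07, adjusted p = 0.00129) against *Kpna6*-/-. *Rsph9*, a spoke-head protein, had 86.7, 89.3 and 88.9 CPM in WT, 73.8, 70.7 and 75.5 CPM in *Kpna6*ΔIBB/ΔIBB and 86.2, 80.3 and 91.1 CPM in *Kpna6*-/- testes, with log2 fold changes of -0.26 and -0.23. *Rsph14* had 22.9, 20.1 and 21.3 CPM in WT, 16.7, 17.5 and 18.9 CPM in *Kpna6*ΔIBB/ΔIBB and 21.1, 20.5 and 21.1 CPM in *Kpna6*-/- testes. Its call against WT (-0.27, adjusted p = 0.0188) was lost without WT replicates 1 and 3 and without *Kpna6*ΔIBB/ΔIBB replicates 1 and 2 (-0.32 to -0.23), and that against *Kpna6*-/- (-0.24) without *Kpna6*-/- replicates 1 and 3 and without the same *Kpna6*ΔIBB/ΔIBB replicates (-0.29 to -0.20).

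*Rsph1* had 781, 850.3 and 847 CPM in WT, 891, 895 and 860 CPM in *Kpna6*ΔIBB/ΔIBB and 849, 814 and 844 CPM in *Kpna6*-/- testes. Every *Kpna6*ΔIBB/ΔIBB sample was above all others, but the change against WT did not pass the test (log2 fold change 0.10, SE 0.04, adjusted p = 0.0751), nor did that against *Kpna6*-/- (0.07, adjusted p = 0.0906). Scaled by library size, *Rsph1* was called higher in both comparisons. *Rsph3a* and *Rsph3b*, stalk proteins that are 99.2% identical over 1823 bases and whose reads cannot be split with certainty, had log2 fold changes of -0.01 and -0.02 against WT, and *Rsph6a* one of -0.06. These 3 values turn their sign under library size. *Rsph4a* had at most 17 counts in a testis, and no statement on its change is possible at this depth.

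Of the nexin-dynein regulatory complex and its ruler, 4 of 6 genes were lower in *Kpna6*ΔIBB/ΔIBB than in WT testes, and 2 of 6 were lower than in *Kpna6*-/- testes. The changes were small, with a median of -0.13 against WT, and under library size 0 of 6 were called lower in either comparison and *Drc1* was higher against *Kpna6*-/-. *Ccdc39*, part of the ruler that sets the spacing of arms and spokes, had 338, 354 and 334 CPM in WT, 307, 315 and 310 CPM in *Kpna6*ΔIBB/ΔIBB and 337, 337 and 333 CPM in *Kpna6*-/- testes. *Ccdc65*, the most abundant gene of the class, had 237, 243 and 243 CPM in WT, 209, 219 and 230 CPM in *Kpna6*ΔIBB/ΔIBB and 230, 220 and 240 CPM in *Kpna6*-/- testes. *Drc7* had 89.9, 100.6 and 93.6 CPM in WT, 78.5, 81.9 and 85.96 CPM in *Kpna6*ΔIBB/ΔIBB and 95.0, 89.3 and 87.7 CPM in *Kpna6*-/- testes.

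In each of these 3 genes the *Kpna6*ΔIBB/ΔIBB samples were below the WT samples. The log2 fold changes against WT were -0.14 (adjusted p = 0.0143) for *Ccdc39*, -0.13 (adjusted p = 0.0317) for *Ccdc65*, -0.20 (adjusted p = 0.0154) for *Drc7* and -0.20 (adjusted p = 0.00519) for *Drc3*. All but that of *Drc3* depended on the testes used. Without WT replicate 2, and likewise without *Kpna6*ΔIBB/ΔIBB replicate 1, *Drc3* alone was called, so that 1 of 6 remained. *Ccdc65* also lost its call without WT replicate 3 and without *Kpna6*ΔIBB/ΔIBB replicate 2, and *Drc7* without the latter. Over the 6 fits the log2 fold changes ranged from -0.15 to -0.12 for *Ccdc39*, from -0.16 to -0.10 for *Ccdc65* and from -0.24 to -0.16 for *Drc7*. Against *Kpna6*-/- testes, *Ccdc39* (-0.12, adjusted p = 0.0139) and *Drc7* (-0.15, adjusted p = 0.0421) were called. *Ccdc39* was not called without *Kpna6*-/- replicate 2, and *Drc7* was not called without any of *Kpna6*-/- replicates 1 and 2 and *Kpna6*ΔIBB/ΔIBB replicates 1 and 2.

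Of the tektins, 4 of 5 were lower than in WT and the same number lower than in *Kpna6*-/- testes, with medians of -0.23 and -0.24, and these calls were kept in each fit that left out 1 testis. *Tekt2* had 304, 314 and 321 CPM in WT, 212, 230.2 and 253 CPM in *Kpna6*ΔIBB/ΔIBB and 295, 288 and 323 CPM in *Kpna6*-/- testes, a log2 fold change of -0.43 against WT (SE 0.06, adjusted p = 0.000221) and -0.39 against *Kpna6*-/- (SE 0.06, adjusted p = 0.000646). *Tekt2* lies 3.33 Mb and *Dnali1* 4.60 Mb from *Kpna6* on chromosome 4, and the part of this linkage in their changes was not tested.

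*Tekt1* had 288, 297 and 296 CPM in WT, 245, 250.01 and 273 CPM in *Kpna6*ΔIBB/ΔIBB and 297, 279 and 310.0 CPM in *Kpna6*-/- testes. *Tekt4* had 222, 236 and 228 CPM in WT, 185, 189 and 208 CPM in *Kpna6*ΔIBB/ΔIBB and 232, 216 and 238 CPM in *Kpna6*-/- testes. *Tekt5* had 137, 135 and 160 CPM in WT, 123, 116 and 118 CPM in *Kpna6*ΔIBB/ΔIBB and 142, 138 and 146 CPM in *Kpna6*-/- testes. In all 3 genes the *Kpna6*ΔIBB/ΔIBB samples were below all others, and the WT and *Kpna6*-/- samples overlapped. Their log2 fold changes against WT were -0.19, -0.23 and -0.27. *Tekt3* did not pass the test (-0.10, adjusted p = 0.191). Under library size, *Tekt2* and *Tekt4* were called lower against WT and *Tekt2*, *Tekt4* and *Tekt5* against *Kpna6*-/-, and with limma on log2(TPM + 1) 1 of 5 was called against WT, *Tekt2*, and 0 against *Kpna6*-/-.

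Heavy chains have the longest transcripts of these genes, and long genes as a whole moved with them. Genes were grouped by the length of their transcript with the most counts over the 9 testes. Of 287 genes at which it had at least 10000 bases, 40.8% were called lower in *Kpna6*ΔIBB/ΔIBB against WT (median log2 fold change -0.14), against 19.0% of 7148 genes under 2000 bases (median -0.01). The 46 genes held 12 in the long group, of which 11 were called lower with a median of -0.26. They held 13 in the short group, of which 9 were called lower with a median of -0.20. From 2000 to 5000 bases 6 of 17 were lower (median -0.06), against 17.6% of 8950 genes. From 5000 to 10000 bases 1 of 4 was lower (median -0.53), against 20.4% of 2412 genes. The part of transcript length in these results was not tested.

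Transcript usage was called different for *Dnah3* only, and these calls were mostly lost when 1 testis was left out. It was examined after the transcript values had been seen, with limma on the log2 ratio of each transcript to the rest of its gene, in which 0.111% of 37760 transcripts were called in *Kpna6*ΔIBB/ΔIBB against WT. Of 93 transcripts of 28 of the 46 genes, 2 were called there, 2 against *Kpna6*-/- and 0 in *Kpna6*-/- against WT. In the same order, 13, 16 and 7 had an unadjusted p below 0.05 with limma. Of all transcripts 0.0956% and 0.00806% were called in the latter 2 comparisons. All these calls were of *Dnah3*. Its transcript Dnah3-201, with 61 exons and 12252 bases, made up 44.7%, 39.9% and 42.5% of the TPM of the gene in WT, 20.2%, 19.6% and 20.9% in *Kpna6*ΔIBB/ΔIBB and 44.96%, 42.0% and 42.2% in *Kpna6*-/- testes. Dnah3-202, with 8 exons and 3247 bases at the 3′ side of the gene (chr7:119925979-119952157), made up 21.2%, 24.4% and 21.3%, then 47.2%, 42.9% and 43.8%, and then 18.5%, 21.9% and 23.6%.

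Dnah3-204 has 12289 bases in the deposited values and 12265 in the annotation used here, and what that difference does to the shares was not tested. The usage of Dnah3-201 was lower against WT by -1.38 on the log2 scale (SE 0.11, adjusted p = 0.0211), and that of Dnah3-202 was higher by 1.57 (SE 0.13, adjusted p = 0.0270). The values against *Kpna6*-/- were -1.43 and 1.64. With 1 testis left out in turn the sizes stayed between -1.44 and -1.29 and between 1.51 and 1.66 against WT, but Dnah3-201 was called in 1 of the 6 fits only and Dnah3-202 in 0 (adjusted p up to 0.102 and 0.106). The TPM of both transcripts of at least 5000 bases together was 18.5 ± 0.952 (SD, n = 3) in WT testes, 7.995 ± 1.09 in those with the deletion (*Kpna6*ΔIBB/ΔIBB) and 15.8 ± 0.889 in *Kpna6*-/- testes. *Lyrm1* overlaps *Dnah3* on the other strand, covering 22.5% of the exon bases of Dnah3-202 and 12.3% of those of Dnah3-201, and since the libraries did not keep the strand, the reads of both genes cannot be told apart there. *Lyrm1* had 35.9, 39.9 and 36.9 CPM in WT, 31.4, 29.9 and 34.8 CPM in *Kpna6*ΔIBB/ΔIBB and 37.2, 36.8 and 36.8 CPM in *Kpna6*-/- testes. It was itself called lower against WT (-0.23, adjusted p = 0.0263, edgeR) and against *Kpna6*-/- (-0.21, adjusted p = 0.0235). *Dnah3* was called in both comparisons also when these genes were counted together. Since *Lyrm1* had fewer counts and moved the same way, the sum could hardly lose the call, and it does not bear on transcript shares.

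*Dnah6*, which was not called, was chosen for display after its values were seen. Exon 28 of this gene (chr6:73144660-73144815, minus strand, coding) is part of Dnah6-201 and not of Dnah6-203. Of the TPM of these transcripts together, Dnah6-201 made up 77.0%, 73.2% and 81.6% in WT, 59.0%, 58.6% and 65.5% in *Kpna6*ΔIBB/ΔIBB and 76.6%, 74.0% and 84.5% in *Kpna6*-/- testes. All *Kpna6*ΔIBB/ΔIBB values were below all others, with a difference of -16.2 percentage points to WT and an exact two-sided permutation p of 0.1, the smallest that 3 against 3 samples allow. The adjusted p in the transcript usage test was 0.121. The exon has 156 bases and is read as 52 codons, so that leaving it out keeps the reading frame. It is shown with 20 bases of the neighbouring exons on each side, since it is the internal exon in which Dnah6-201 and Dnah6-203 differ. It was taken from the GENCODE M21 transcript sequences, with the exon in capitals.
Dnah6 exon 28: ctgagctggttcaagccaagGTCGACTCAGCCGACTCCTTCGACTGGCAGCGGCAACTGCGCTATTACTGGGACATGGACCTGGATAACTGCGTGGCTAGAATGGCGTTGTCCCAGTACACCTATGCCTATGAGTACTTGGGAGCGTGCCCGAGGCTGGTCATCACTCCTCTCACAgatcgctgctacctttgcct

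**Figure D4:**
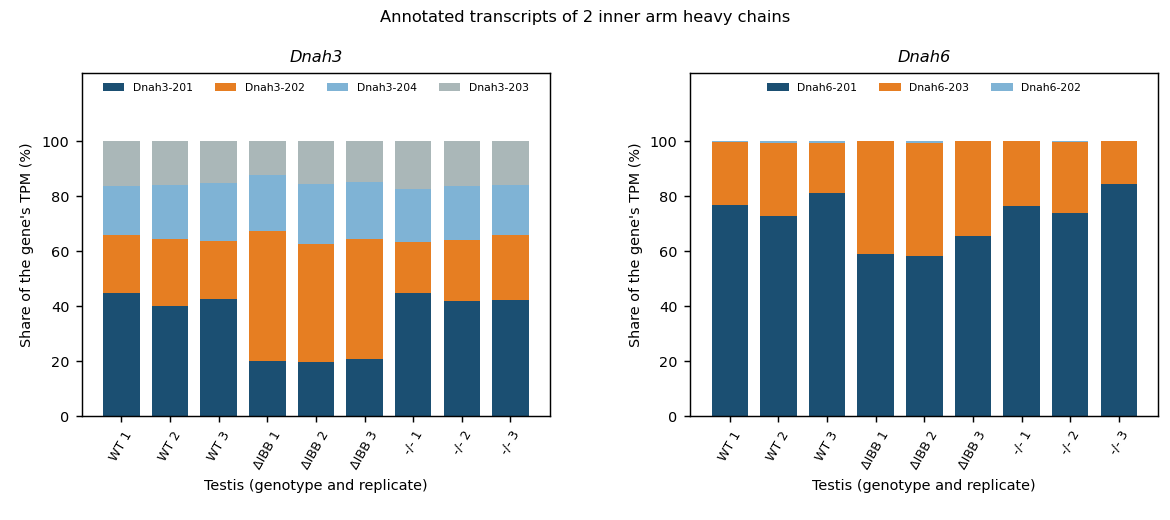
Share of each annotated transcript in the TPM of *Dnah3* (left) and *Dnah6* (right) in each of the 9 testes, in percent. Each bar is 1 testis. The share of Dnah3-201 is between 19.6% and 20.9% in the 3 *Kpna6*ΔIBB/ΔIBB testes and at least 39.9% in the 6 others, and that of Dnah6-201 is at most 65.5% in the former and at least 72.9% in the latter.

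Further genes of the axoneme were listed from general knowledge of its parts and compared in the same way. Of 17 tested partners of dynein arms and assembly factors 8 were lower in *Kpna6*ΔIBB/ΔIBB against WT, of 16 partners of spokes and the regulatory complex 9, of 11 genes of the central apparatus 8, and of 12 proteins inside the doublets 7, and 0 were higher in these 4 lists, where 18.9% of all genes were lower. Their medians were -0.16, -0.18, -0.28 and -0.18. *Hydin*, a large protein of the central apparatus, had a log2 fold change of -0.67 (adjusted p = 1.51e-05), *Tctex1d1*, a dynein light chain, one of -0.49 (adjusted p = 0.000198), and *Enkur* one of -0.47 (adjusted p = 3.21e-05). Of 13 genes of cytoplasmic dynein, which moves cargo and not the tail, 3 were lower and 1 was higher, with a median of -0.02. Of these 5 lists, 1 gene was called in *Kpna6*-/- against WT, *Iqca* (-0.33, adjusted p = 0.0218), and against *Kpna6*-/- the lower genes numbered 7, 9, 7, 6 and 5, where 16.8% of all genes were lower. Under library size the lower genes of the 5 lists numbered 3, 5, 6, 4 and 2 against WT and 3, 5, 5, 2 and 3 against *Kpna6*-/-, and 6 and 4 of cytoplasmic dynein and at most 1 of each other list were higher. Under that scaling 2326 of all 18797 genes were called lower and 5416 higher against WT. The counts of the lists under library size were added after the data had been seen.

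Markers of cell types of the testis were examined in the same comparison, in which 18.9% of all genes were lower and 17.7% higher. All 10 markers of round spermatids and all 10 of elongating spermatids were lower in *Kpna6*ΔIBB/ΔIBB than in WT testes, with medians of -0.57 and -0.41, and 0 of either list was called in *Kpna6*-/- against WT. The summed level of the round spermatid markers was 1750 to 1934 TPM in WT, 1300.5 to 1510 TPM in *Kpna6*ΔIBB/ΔIBB and 1618 to 1827 TPM in *Kpna6*-/- testes. *Catsper3*, a channel of the sperm tail, had a log2 fold change of -0.72, and *Tnp1*, a transition protein of condensing chromatin, one of -0.59. Of the 10 pachytene spermatocyte markers 2 were lower and 1 was higher (median -0.02), of 10 leptotene to zygotene markers 3 were lower and 2 higher (median -0.07), and of 10 spermatogonium markers 1 was lower and 2 higher (median 0.15). Under library size 10 of 10 round and 9 of 10 elongating spermatid markers were lower. The pachytene, leptotene to zygotene and spermatogonium lists had 0, 0 and 1 lower and 3, 3 and 5 higher. Of all 18797 genes, 2326 were lower and 5416 higher under that scaling.

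All 12 Sertoli cell markers were higher (median 0.59), with a summed level of 1209.8 to 1329.7 TPM in WT, 2013 to 2386 TPM in *Kpna6*ΔIBB/ΔIBB and 1477 to 1555 TPM in *Kpna6*-/- testes, and 4 of 12 were also higher in *Kpna6*-/- against WT. Of 8 markers each, 2 of Leydig cells, 4 of peritubular and endothelial cells and 4 of macrophages were higher, and 0, 1 and 0 were lower. Among 9 markers of multiciliated cells, which line the efferent ducts and use many of these axonemal genes, 7 could be tested and 3 were lower (median -0.42). Their summed level was 259 to 273 TPM in WT, 214 to 239 TPM in *Kpna6*ΔIBB/ΔIBB and 245 to 258 TPM in *Kpna6*-/- testes, of which *Deup1* alone took 198 ± 3.50 TPM in WT, and *Gmnc* and *Sntn* were at 0 in some testes. Of the 8 epididymal markers 3 could be tested and 2 were higher. The part of these cell types in the changes of the axonemal genes was not tested.

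**Figure D5:**
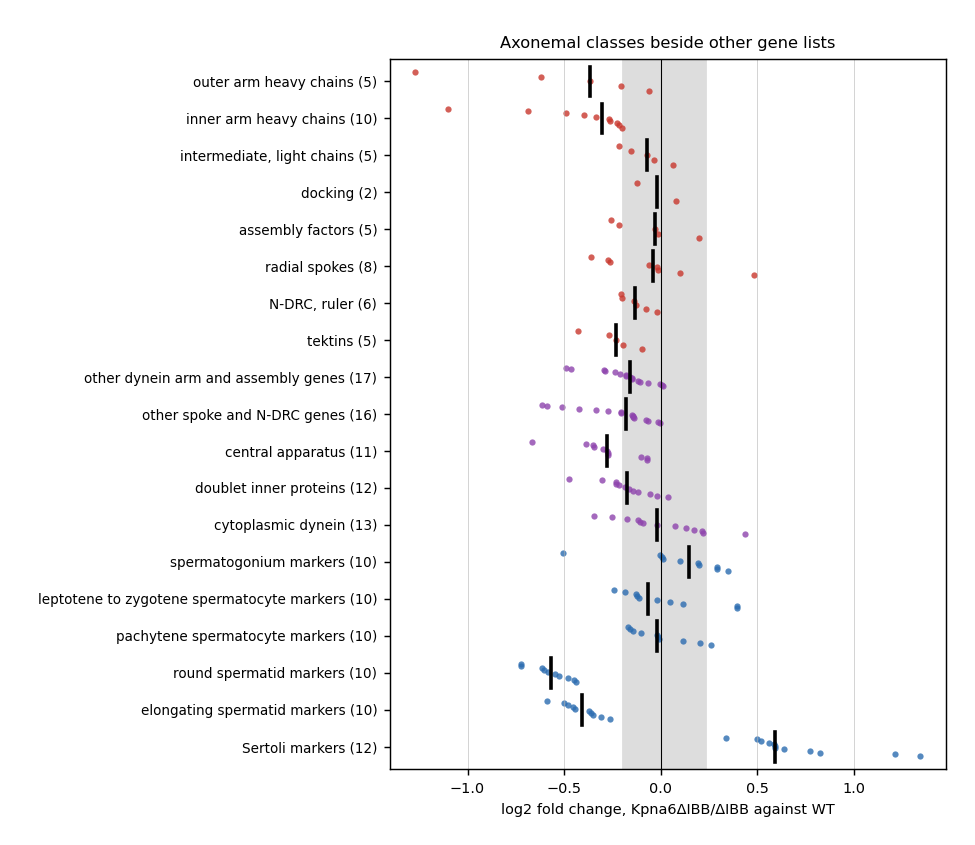
Log2 fold changes in *Kpna6*ΔIBB/ΔIBB against WT of the 8 classes (red), of 5 further gene lists (purple) and of markers of 6 cell types (blue). Each point is a gene, vertical bars are medians, the number of genes tested stands in parentheses, and the grey band holds the middle 50% of all genes. Outer arm heavy chains (median -0.37), inner arm heavy chains (-0.30) and tektins (-0.23) lie to the left of 0, round spermatid markers (-0.57) further left, and Sertoli cell markers (0.59) to the right.

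RFX factors and FOXJ1 are known to switch on genes of motile cilia and of the sperm tail. *Rfx2* had 426, 446 and 422 CPM in WT, 442, 469 and 454 CPM in *Kpna6*ΔIBB/ΔIBB and 462, 425 and 435 CPM in *Kpna6*-/- testes, and the groups overlapped (log2 fold change 0.08 against WT, adjusted p = 0.116). *Rfx3* was lower in *Kpna6*ΔIBB/ΔIBB testes, with 51.5, 48.8 and 47.7 CPM in WT, 35.02, 37.3 and 41.1 CPM in the mutant and 44.3, 47.1 and 47.2 CPM in *Kpna6*-/- testes. Its log2 fold change was -0.38 against WT (SE 0.06, adjusted p = 0.00112) and -0.29 against *Kpna6*-/- (adjusted p = 0.00478). *Foxj1* did not pass the test (-0.12, adjusted p = 0.173).

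Promoter windows, from 250 bases before to 50 bases after a start site (RefSeq, GRCm38.p6), could be matched for 41 of the 46 genes and were searched on both strands. The full RFX motif, GTNNCC and GGNNAC with 2 bases of any kind between them, was found in 4 of the 45 windows of these genes (8.89%) and in 1.88% of all 32851 windows. The shorter motif GTTGCC, which is part of many RFX sites, was found in 14 of 45 windows (31.1%), which belong to 13 genes, and in 12.5% of all windows. The motif TGACGTCA of CREB and CREM was found in 1 of 45 windows (2.22%), that of *Dnah6*, and in 1.79% of all windows. Such a match is a run of letters and not a measured binding site. The 4 full matches are shown with their flanks, on the strand of the gene, with the motif in capitals. They belong to *Ccdc151* (chr9:22002642-22002681, minus strand), *Dnaaf5* (chr5:139150204-139150243, plus strand), *Rsph9* (chr17:46144180-46144219, minus strand) and *Tekt4* (chr17:25471417-25471456, plus strand), of which *Rsph9* and *Tekt4* were lower in *Kpna6*ΔIBB/ΔIBB testes and the other two did not pass the test.
Ccdc151: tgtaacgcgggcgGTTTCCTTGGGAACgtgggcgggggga
Dnaaf5: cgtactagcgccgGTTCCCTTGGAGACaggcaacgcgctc
Rsph9: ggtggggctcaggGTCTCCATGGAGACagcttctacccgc
Tekt4: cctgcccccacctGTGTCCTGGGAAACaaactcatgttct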

How the data were processed

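Poly(A) RNA of 9 whole testes was sequenced by the authors with an unstranded kit, and reads were assigned to mm10 transcripts with kallisto (version 0.45 in the submitters' processing notes, another in the study's methods). The transcript release is not given in the sources used here. The authors deposited, per transcript, an estimated count, which is not normalized between samples, and a TPM value, which is scaled to a common total within each library. How reads of near-identical transcripts were split is part of kallisto's estimate and cannot be checked from these values.

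Here 95301 of 96626 transcripts were assigned to 32035 genes of GENCODE M21, and both values were summed per gene. Counts were rounded and filtered with filterByExpr. With TMM factors, edgeR 4.0.16 (R 4.3.3; glmQLFit and glmQLFTest) compared genes by its quasi-likelihood method on the 6 samples of each comparison, with Benjamini-Hochberg adjustment over all genes and a threshold of 0.05. Transcript usage was tested with limma 3.58.1 on log2 ratios with 1 added to each count, for transcripts with a mean count of at least 10. Near-identical sequences (at least 95% identity over 100 bases) were sought with blastn 2.17.0+. Alternatives were DESeq2 1.42.0 and those of the closing section.

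The genes belong to the set by a symbol rule. Values in every sample are given for the most abundant gene of each class, for the 5 largest called changes per direction with at least 1 TPM and no overlap of groups, and for genes called in *Kpna6*ΔIBB/ΔIBB against *Kpna6*-/-. Values of *Dnah5*, *Dnah9*, *Dnah11* and *Lyrm1*, and the other genes named, were added after their values were seen. The gene set, the classes and the lists were chosen with earlier results of these data known. On simulated data of *Kpna6*ΔIBB/ΔIBB against WT with 18797 genes, edgeR recovered 48 of 100 genes changed by 0.5 and 70 of 100 changed by 1 on the log2 scale and called 14 others. No further genes were changed in the simulation, whereas 36.6% of all genes were called in the measured comparison. These rates therefore do not measure the recovery in the measured data. The SE of a gene is its absolute log2 fold change divided by the square root of the F statistic of edgeR. It rests on 3 testes per group and on dispersions estimated with the help of all genes. It is not printed for every gene. Replicate numbers come from the labels, and nothing says that they pair samples. Promoter windows of 5 genes were not used here.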

Additional observations from a re-analysis of the deposited data

How the results depend on the processing

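The results were recomputed under 18 other settings per comparison. In *Kpna6*ΔIBB/ΔIBB against WT, the 27 lower genes became 13 when libraries were scaled by size only, 5 with limma on log2(TPM + 1) and 19 with length-scaled TPM counts. In the same order, 2326 of 18797, 1451 of 22480 and 2804 of 18826 genes of all kinds were lower. Called higher were 3 genes by library size, 2 with limma, 1 with length-scaled TPM counts and 1 with the replicate number as a block. These settings called 5416, 3494, 2423 and 3277 of all genes higher. Against *Kpna6*-/- the 22 lower genes became 12, 3 and 14 by library size, limma and length-scaled counts, and 6 and 3 genes were higher by library size and limma. In *Kpna6*-/- against WT, 1 gene was lower with DESeq2 and 2 without a filter on low counts. With 1 testis left out in turn, 20 to 27, 16 to 23 and 0 to 1 genes were lower in *Kpna6*ΔIBB/ΔIBB against WT, against *Kpna6*-/- and in *Kpna6*-/- against WT, and 0 to 1 were higher against *Kpna6*-/-. The cause of these differences was not tested. *Dnah2*, *Dnah3*, *Dnah6*, *Dnah12* and *Tekt2* were lower against WT in every setting, and *Dnaaf3*, *Dnah3* and *Dnah12* against *Kpna6*-/-.

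Samples of the same number did not deviate together (correlations across genes from -0.056 to 0.073), and not every sample correlated best with its own number. With the replicate block, 28, 0 and 24 genes were lower in *Kpna6*ΔIBB/ΔIBB against WT, in *Kpna6*-/- against WT and against *Kpna6*-/-, and 1 gene, *Dnaaf5*, was higher against WT.

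Under library size 11 of 46 genes turned their sign in *Kpna6*ΔIBB/ΔIBB against WT, 3 of 45 in *Kpna6*-/- against WT and 10 of 46 against *Kpna6*-/-. Among genes with values in every sample by the rule for named genes, the turned log2 fold changes by library size were 0.068 for *Dnaaf1* against WT and, against *Kpna6*-/-, 0.055 for *Dnaaf1*, 0.022 for *Ccdc151* and 0.030 for *Ccdc65*. With limma on log2(TPM + 1) they were 0.00081 for *Ccdc151*, 0.095 for *Dnaaf1*, 0.045 for *Dnah14* and 0.031 for *Dnah7b* against WT, and 0.060 for *Ccdc151*, 0.072 for *Ccdc65*, 0.098 for *Dnaaf1*, 0.18 for *Dnah14* and 0.012 for *Dnali1* against *Kpna6*-/-. With length-scaled counts *Dnah14* had 0.068 against *Kpna6*-/-. In *Kpna6*-/- against WT, *Dnaaf1* had -0.0028 and *Dnah12* -0.0060 with limma, *Dnah12* -0.0041 with length-scaled counts, and *Rsph10b* 0.0072 by library size, 0.0015 with the filter of at least 5 counts in 0.47 of the libraries, 0.00053 with all 9 samples in 1 fit and 0.028 with protein-coding transcripts only. With 1 testis left out, *Dnaaf1* ranged from -0.065 to 0.00016 in *Kpna6*ΔIBB/ΔIBB against WT. The ranges in *Kpna6*-/- against WT were -0.026 to 0.043 for *Dnaaf1*, -0.059 to 0.079 for *Dnah12*, -0.082 to 0.0052 for *Dnah8*, -0.023 to 0.036 for *Rsph1* and -0.028 to 0.035 for *Rsph10b*.

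*Dnah7a*, *Dnah7b* and *Dnah7c* were also counted together, and so were *Rsph3a* and *Rsph3b*, where the joint result stood for each gene of the sum. These sums, and counting *Dnah3* together with *Lyrm1* (an alternative chosen after seeing the data), kept all 27 and 22 calls. Other genes of the set that share near-identical sequence with a further gene were not summed. With 3 testes per group, a gene not called may still differ.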
